A study of Noccaea goesingensis with 12 samples.

Results

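WRKY transcription factors were followed in the roots of *Noccaea goesingensis*, a nickel (Ni) hyperaccumulating relative of *Arabidopsis thaliana*, through 55 *A. thaliana* identifiers of the family. They were chosen as family members and not by their values, though earlier results of these data were known. The deposited tables compare the serpentine population (TM) with the non-metallicolous population (NTM), and 18 of the 55 identifiers were found in them, 5 in roots with Ni and 14 in roots without Ni, with 1 in both. The remaining 37 were in neither table. In all, the tables hold 5273 genes, of which 1944 were listed with Ni, 4460 without Ni and 1131 in both states.

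WRKY proteins are a large plant family of DNA-binding regulators that share a domain named after its conserved amino acids, followed by a zinc finger. In *A. thaliana* they bind a promoter element called the W box, which occurs in many defence and stress genes and in WRKY genes themselves. Mitogen-activated protein (MAP) kinases and small partners called VQ proteins are known to control their activity. In roots, members of the family have also been linked to phosphate supply, epidermal cell fate and lateral root growth. The family is sorted into groups I, IIa, IIb, IIc, IId, IIe and III by the number of its domains, the type of the zinc finger and sequence likeness.

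The labels give 4 groups: TM plants with Ni (2 libraries), NTM plants with Ni (3 libraries), untreated TM plants (4 libraries) and untreated NTM plants (3 libraries). Per the labels and the series description, roots of 5 plants were combined for each library and exposure to Ni lasted 3 weeks. Seeds came from several plants of a single serpentinite site (TM) and a single dolomite site (NTM), so each ecotype is represented by 1 population. The methods describe a sand and perlite substrate and an equal number of samples in every group, whereas the labels name mine dump substrate and unequal numbers. No age of the plants or Ni concentration is printed here.

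The tables hold 1 value, in fragments normalized to transcript length and library size (FPKM), for each group of libraries, so no replicate error could be given for any gene and no difference was tested. Separate files of the same values head their columns as TPM whereas the methods give FPKM, and the unit follows the methods here without having been settled. Depth is not given in these tables, and according to the alignment statistics of the study 1 of the NTM libraries with Ni was far shallower than the others. Each table holds the genes with an unadjusted *p*-value of the authors under 0.05 for TM against NTM. A gene listed passed this limit without correction for the number of genes, and may have passed by chance. A gene in neither table either did not pass or was not tested. The libraries were aligned to the *A. thaliana* genome, where conserved stretches shared by WRKY paralogues can draw reads of more than 1 *Noccaea* gene, so the division of reads among the members is uncertain. In root tissue, fewer cells of a type and less RNA per cell cannot be told apart.

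Most of the WRKY genes listed in roots without Ni had lower values in the TM ecotype. Of the 14 genes, 10 were lower and 4 were higher in TM, and among all 4460 genes listed 55.5% were lower and 44.5% higher. The log2 ratio of TM over NTM, with 0.1 FPKM added to each value, was 1 or more in either direction for 9 of the 14 genes, 7 of them lower and 2 higher. Among all genes listed without Ni, 60.2% passed this ratio in either direction, 32.8% lower and 27.4% higher. The share of WRKY genes past it is therefore near that of the whole table, and no error can be set to the split of 14 genes by direction. The median log2 ratio was -1.01 over the 14 WRKY genes and -0.71 over all genes listed, and the median absolute log2 ratio was 1.12 in both. When all ratios were centred on that median of -0.71, the calls past 1 among the 14 WRKY genes were 4 higher and 0 lower. Calls over all genes were not counted after this centring. The median of the genes listed is a poor centre, since the smallest absolute log2 ratio of any gene listed was 0.55.

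The largest difference downward was that of AT5G13080, with 4.15 FPKM in TM roots and 12.0 FPKM in NTM roots (log2 ratio -1.51). It lies on chromosome 5 from 4149740 to 4151150, and 678 of the 4460 genes had a lower ratio. AT5G26170 (chromosome 5, 9147176 to 9148128) stood at 7.44 FPKM in TM roots and 19.5 FPKM in NTM roots, with a log2 ratio of -1.37. In the TM ecotype these WRKY genes were at 0.35 and 0.38 of the NTM value, and the next one at 0.39 of it. AT2G44745 (chromosome 2, 18447273 to 18449009) had 3.88 FPKM in TM roots and 10.0 FPKM in NTM roots, a log2 ratio of -1.34.

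A further 4 genes were past a log2 ratio of -1 with NTM values of 2.05 to 2.24 times those of TM. The gene named *WRKY70* (AT3G56400, chromosome 3, 20908928 to 20910481), which in *A. thaliana* acts between salicylic acid and jasmonate dependent defence and takes part in brassinosteroid-regulated growth, is one of these. It had 5.02 FPKM in TM roots and 11.1 FPKM in NTM roots, a log2 ratio of -1.13, and 1191 of the 4460 genes listed had a lower ratio. The ecotype difference of *WRKY70* thus sat in the middle of the WRKY genes with lower TM values. The study reports *WRKY70* as raised by Ni in TM roots. That change could not be formed here, since the gene was not listed with Ni. AT1G29860 (chromosome 1, 10454482 to 10455785) was at nearly the same values, with 4.41 FPKM in TM roots and 9.87 FPKM in NTM roots (log2 ratio -1.14). AT5G46350 (chromosome 5, 18801218 to 18804043) had the lowest TM value of the 14 genes, with 2.09 FPKM in TM roots and 4.65 FPKM in NTM roots (log2 ratio -1.12). With 1 FPKM added in place of 0.1 FPKM its log2 ratio was -0.87, which no longer passed. AT5G07100 (chromosome 5, 2204248 to 2205811) had 11.4 FPKM in TM roots and 23.3 FPKM in NTM roots, a log2 ratio of -1.03 that is just past the threshold and was -0.97 with 1 FPKM added.

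The remaining 3 genes with lower TM values did not reach a log2 ratio of -1. AT4G11070 (chromosome 4, 6759303 to 6760794) fell just short of it, at -0.99, with 6.40 FPKM in TM roots and 12.8 FPKM in NTM roots. The other 2 had the highest mean of both ecotypes among the WRKY genes of the table and the smallest differences. AT2G38470 (chromosome 2, 16108361 to 16111797) had the highest level in both ecotypes, with 57.8 FPKM in TM roots and 91.0 FPKM in NTM roots (log2 ratio -0.65), and the sign turned to 0.053 when ratios were centred on the median of all genes. AT4G26640 (chromosome 4, 13437071 to 13440835) had 29.5 FPKM in TM roots and 46.1 FPKM in NTM roots (log2 ratio -0.64), and its sign likewise turned, to 0.066.

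Higher values in the TM ecotype were found for 4 WRKY genes without Ni. AT2G34830 (chromosome 2, 14693756 to 14696378) had 4.58 FPKM in TM roots and 1.62 FPKM in NTM roots, a log2 ratio of 1.44, and 560 of the 4460 genes had a higher ratio. AT2G25000 (chromosome 2, 10629737 to 10631413) stood at 10.1 FPKM in TM roots and 3.84 FPKM in NTM roots (log2 ratio 1.37). Both passed a log2 ratio of 1 and had the lowest NTM values of the 14 genes. AT4G39410 (chromosome 4, 18332878 to 18334789) stayed just under it, at 0.97, with 23.0 FPKM in TM roots and 11.7 FPKM in NTM roots. AT4G01250 (chromosome 4, 522604 to 524216), the gene listed in both states, had 44.0 FPKM in TM roots and 23.9 FPKM in NTM roots (log2 ratio 0.88).

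In level, the 14 WRKY genes spanned 2.09 to 57.8 FPKM in TM roots (median 6.92) and 1.62 to 91.0 FPKM in NTM roots (median 11.8). The medians of all genes listed without Ni were 15.4 FPKM in TM roots and 17.2 FPKM in NTM roots, and 4 of the 14 WRKY genes in TM and 5 in NTM were above them. The 5 WRKY genes listed with Ni spanned 10.5 to 109.4 FPKM in TM roots (median 51.9) and 22.6 to 54.4 FPKM in NTM roots (median 25.1). The medians of all genes listed with Ni were 24.6 FPKM in TM roots and 27.3 FPKM in NTM roots. None of the WRKY genes was listed at 0 in either ecotype. Without values per library, neighbours in this order of levels cannot be told apart beyond their error.

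**Figure D1:**
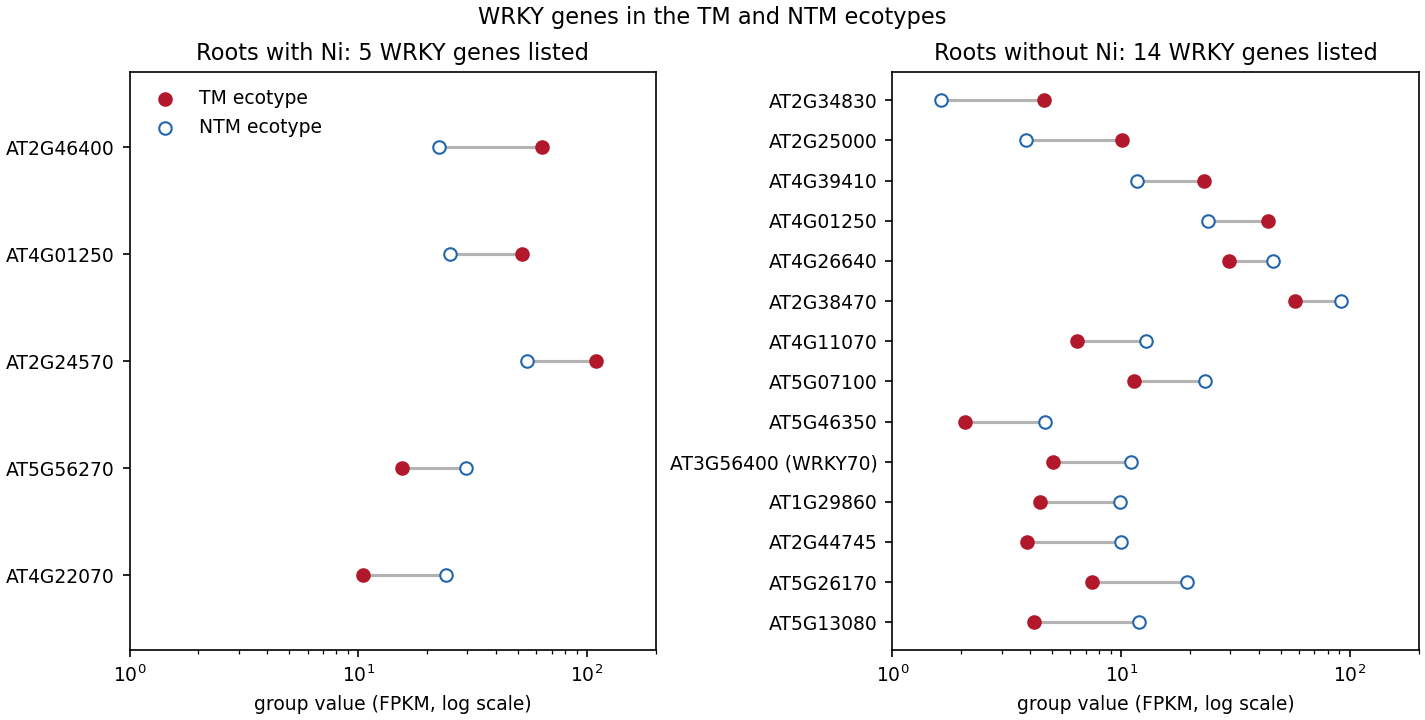
Group values of the WRKY genes listed with Ni (left, 5 genes) and without Ni (right, 14 genes), in FPKM on a log scale, with 1 point for the TM ecotype (filled) and 1 for the NTM ecotype (open) and no error bars. With Ni the TM value was the higher one for 3 of the 5 genes, and without Ni it was the lower one for 10 of the 14. Among all genes listed, 46.2% were higher in TM with Ni and 55.5% were lower in TM without Ni.

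With Ni, 3 of the 5 WRKY genes listed had higher values in the TM ecotype and 2 had lower values, where 46.2% of all genes listed were higher and 53.8% lower. Past a log2 ratio of 1 were 3 genes higher and 1 lower, beside 39.4% of all 1944 genes listed with Ni that were past it upward and 46.8% downward (86.1% in either direction). The median log2 ratio was 1.01 over the 5 WRKY genes and -0.91 over all genes listed. Centred on the latter, the calls past 1 among the WRKY genes were 3 higher and 0 lower, and calls over all genes were not counted after this centring. With 5 genes and no replicate error, these numbers describe the genes listed and do not show that the family leans to either side.

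AT2G46400 (chromosome 2, 19043414 to 19044826) had the largest difference of the WRKY genes under Ni, with 63.7 FPKM in TM roots and 22.6 FPKM in NTM roots, a log2 ratio of 1.49. A higher ratio was held by 402 of the 1944 genes. AT4G01250 had 51.9 FPKM in TM roots and 25.1 FPKM in NTM roots (log2 ratio 1.04). AT2G24570 (chromosome 2, 10437398 to 10439298) reached the highest value of any WRKY gene in either table, 109.4 FPKM in TM roots against 54.4 FPKM in NTM roots, and its log2 ratio of 1.01 only just passed the threshold and was 0.99 with 1 FPKM added. These 3 genes were thus at 2 times or more of the NTM value in the TM ecotype.

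Lower values in the TM ecotype under Ni were found for AT4G22070 and AT5G56270. AT4G22070 (chromosome 4, 11691378 to 11694392) had 10.5 FPKM in TM roots and 24.2 FPKM in NTM roots, a log2 ratio of -1.20. AT5G56270 (chromosome 5, 22779693 to 22783268) had 15.5 FPKM in TM roots and 29.5 FPKM in NTM roots, and at -0.93 it did not reach the threshold. Of the 5 WRKY genes listed with Ni, only AT4G01250 was also listed without it. Among all 1944 genes listed with Ni, 1131 were also listed without Ni. For the other WRKY genes the change with Ni within an ecotype could not be formed. Whether the ecotype difference of these genes depends on Ni was not tested, since absence from a table gives no value.

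**Figure D2:**
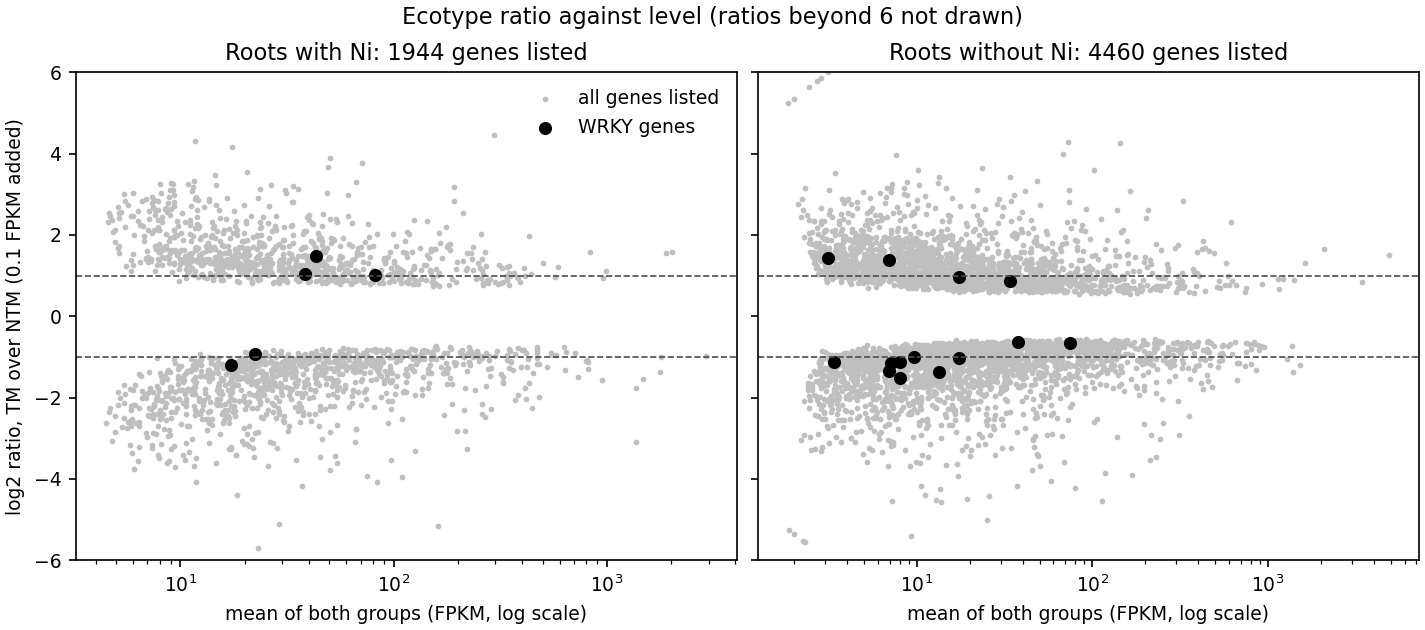
Log2 ratio of TM over NTM (vertical axis, 0.1 FPKM added) against the mean FPKM of both groups (log scale) for all genes listed (grey) and the WRKY genes (black), with Ni (left) and without Ni (right). Dashed lines mark log2 ratios of 1 and -1, the 74 genes with Ni and 44 genes without Ni beyond 6 in either direction are not drawn, and the WRKY genes lay between -1.51 and 1.49.

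The plot of ratio against level shows that the genes listed leave a gap around 0. The smallest absolute log2 ratio of any gene listed was 0.74 with Ni and 0.55 without Ni. Among the WRKY genes the smallest was 0.93 with Ni and 0.64 without Ni. The highest was 1.49 with Ni and 1.51 without Ni, so no WRKY gene reached a log2 ratio of 2 in either state. How many of all genes listed reached 2 was not counted, so this does not set the WRKY genes apart.

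AT4G01250 was the only WRKY gene with a value in all 4 groups. In TM roots it stood at 51.9 FPKM with Ni and 44.0 FPKM without Ni, from separate tables. The methods describe scaling over all libraries, and whether this spanned both tables is not stated. In NTM roots it stood at 25.1 FPKM with Ni and 23.9 FPKM without Ni. Its TM values were thus above both NTM values, and the values with Ni were close to those without. Between Ni and control the log2 ratio was 0.24 in the TM ecotype and 0.072 in the NTM ecotype. Neither reached 1, which 4.6% of the 1131 genes passed in TM and 8.13% in NTM, counting both directions. A larger change in either direction was held by 569 of the 1131 genes in TM and by 985 in NTM. The difference between the ecotypes in this ratio was 0.17 (TM minus NTM), smaller than that of 883 of the 1131 genes, and it was not tested.

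**Figure D3:**
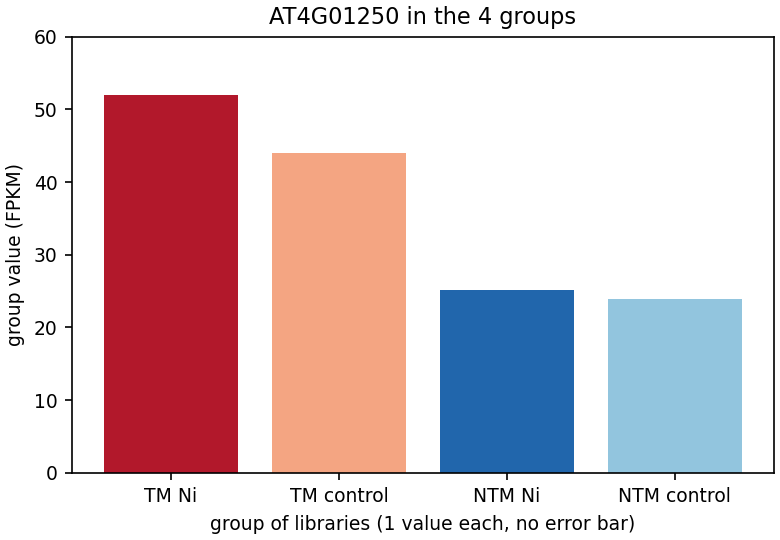
Group values of AT4G01250 in FPKM (vertical axis) in TM roots with Ni and without Ni and in NTM roots with Ni and without Ni, with 1 value per group of libraries and no error bar. The TM values of 51.9 and 44.0 FPKM stand above the NTM values of 25.1 and 23.9 FPKM, and the values with and without Ni come from separate tables.

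By structural group, the WRKY genes with lower TM values without Ni came from 3 groups. Members of a group are counted here among the 55 identifiers followed, which need not hold the whole family. Among all genes listed without Ni, 55.5% were lower in TM and 44.5% higher. The few genes listed per group therefore give no direction for a group. The assignment of identifiers to groups follows the general classification of the *A. thaliana* family and is not part of the files, and the counts carry no test. Group IIc, a part of the large class with a single WRKY domain, held 6 of the 14 genes listed without Ni, 5 lower and 1 higher in TM, with a median log2 ratio of -1.24. Group I, whose members carry a pair of WRKY domains, had 3 of 10 members listed, all lower in TM (-1.03 to -0.64). Group III, which has another type of zinc finger and includes *WRKY70*, had 2 of 10 members listed, both lower in TM (-1.13 and -0.99).

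The other groups had no listed member with a lower TM value without Ni. Group IIe had 2 of 5 members listed, both higher in TM (0.88 and 1.44), and group IIa had 1 of 3 listed, also higher (1.37). None of the 8 identifiers followed in group IIb and none of the 6 in group IId was listed without Ni. With Ni, groups IId, IIe and III had 1 member each with a higher TM value. Groups I and IIb had 1 each with a lower TM value. None of the 13 identifiers followed in group IIc and the 3 in group IIa was listed with Ni. Among all genes listed with Ni, 53.8% were lower in TM and 46.2% higher.

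**Figure D4:**
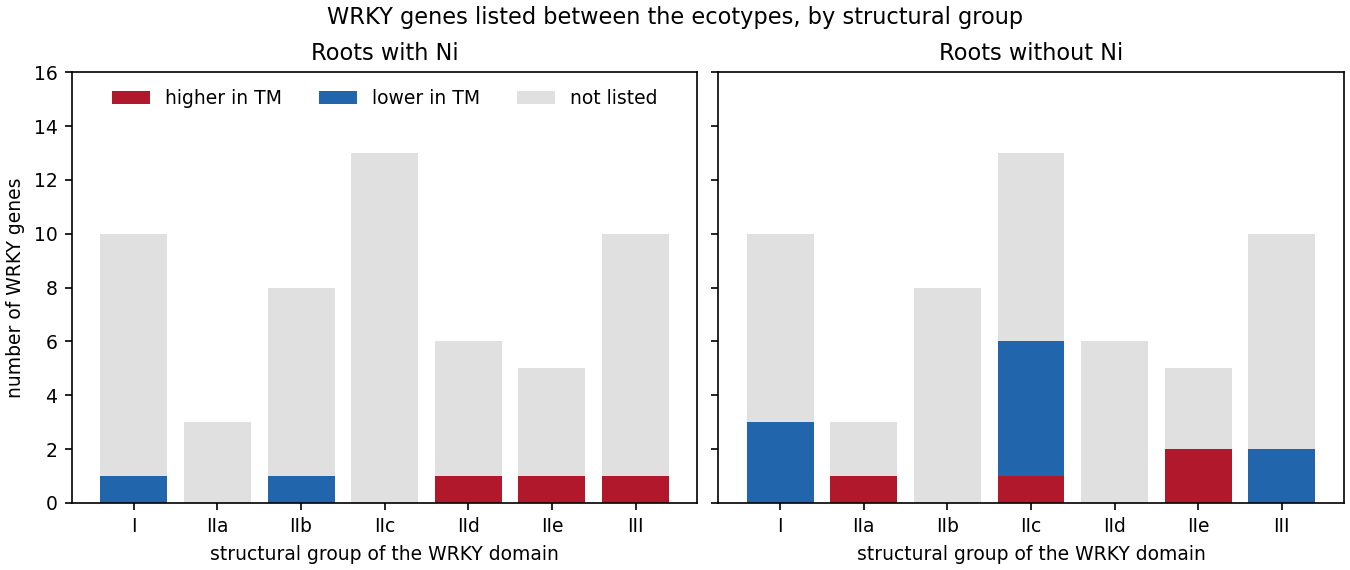
Number of WRKY genes (vertical axis) by structural group of the WRKY domain, with Ni (left) and without Ni (right), split into genes higher in TM, lower in TM and not listed. Without Ni group IIc held 5 genes lower and 1 higher in TM of the 13 identifiers followed, while with Ni none of these was listed. Over all genes, 4460 were listed without Ni, 55.5% of them lower in TM, and 1944 were listed with Ni. The few genes per group give no direction for a group.

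The loci of the 14 WRKY genes listed without Ni were 953 to 3765 bp long, with a median of 1645 bp, compared with 1913 bp over all genes listed. None of the WRKY loci overlapped another gene listed in the same table. Of the 18 WRKY genes listed in either state, 6 lay on chromosome 2, 5 on chromosome 4, 5 on chromosome 5 and 1 each on chromosomes 1 and 3, where the list of 55 has 16, 13, 11, 11 and 4 members on chromosomes 2, 4, 5, 1 and 3.

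Genes that act with WRKY proteins were counted from fixed lists of identifiers, without a test. For VQ proteins, which bind WRKY proteins, 3 of 29 genes were listed with Ni, all lower in TM and past a log2 ratio of -1 (-1.89 to -1.13), where 53.8% of all genes listed with Ni were lower and 46.8% were past -1. Without Ni 6 of 29 were listed, 5 lower in TM (3 of them past -1) and 1 higher (-2.00 to 2.70, median -1.45), where 55.5% of all genes listed were lower and 32.8% were past -1. The other VQ genes have no value here, so these counts give no direction for VQ proteins as a group.

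Of the MAP kinase cascade, which phosphorylates WRKY proteins, 1 of 8 genes was listed with Ni, lower in TM (-0.90), and 3 of 8 without Ni, 1 lower (-1.06) and 2 higher (up to 0.94). Of 10 genes of salicylic acid signalling, 1 was listed with Ni, higher in TM (1.16), and 0 without Ni. Of 10 genes known as targets of WRKY proteins in *A. thaliana*, 0 were listed with Ni and 2 without Ni, both lower in TM (-0.77 and -0.74). The targets therefore gave few values to set beside the WRKY genes. Among all genes listed, 53.8% were lower in TM with Ni and 55.5% without Ni. The few genes of these lists thus give no direction for any of them.

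Marker genes of roots and leaves could be checked only where they were listed. Of 10 root markers, 1 was listed with Ni (39.1 FPKM in TM and 99.0 FPKM in NTM) and 2 without Ni (76.4 FPKM in TM and 134.2 FPKM in NTM when summed), and all were above 0. Of 8 leaf markers, 1 was listed with Ni, with 45.4 FPKM in TM roots and 6.80 FPKM in NTM roots, and another without Ni, with 23.1 FPKM in TM roots and 45.0 FPKM in NTM roots. The part of root cell types or of green tissue in the WRKY differences was not tested.

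The WRKY identifiers in neither table were AT2G04880, AT2G03340, AT1G13960, AT1G62300, AT4G24240, AT1G68150, AT1G55600, AT4G31550, AT2G23320, AT4G31800, AT2G30590, AT2G47260, AT2G30250, AT4G18170, AT4G23550, AT5G24110, AT1G69810, AT5G22570, AT3G04670, AT1G80840, AT4G04450, AT2G46130, AT2G37260, AT3G01970, AT4G01720, AT5G49520, AT5G64810, AT4G23810, AT2G40750, AT2G40740, AT1G69310, AT1G18860, AT5G01900, AT1G66600, AT1G29280, AT3G58710 and AT5G15130. No value of these genes was analysed here, and their absence does not show that the ecotypes were alike in them.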

How the data were processed

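RNA-seq of roots was available as 12 libraries in 4 groups, grouped by the sample labels. Per the labels and the methods, the authors trimmed reads with cutadapt 1.8.1, aligned them with HISAT2 2.1.0 to the *A. thaliana* genome, for which the submitters' processing notes name TAIR10, and used Cuffdiff of Cufflinks 2.2.1 with geometric normalization. The authors deposited FPKM values as 1 value per group and gene, in comparison tables and in group files whose columns are headed TPM. The authors also deposited a log2 fold change and an unadjusted p-value from Cuffdiff for TM against NTM. These were not used, except to check that every deposited p-value was under 0.05.

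Log2 ratios were computed from the deposited FPKM with a pseudocount of 0.1 FPKM, and a ratio of 1 or more in either direction was taken as past the threshold. The same calculation gave Ni over control for the 1131 genes in both tables. The group files equalled the comparison tables, with 0 differing values. Each of the 8 value columns belongs to a single group. Locus starts count from 0 in the files and are printed counting from 1.

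Every WRKY gene listed in either table is named. Identifiers have no symbols in the files, so names are given only where the study pairs them, and genes of the other lists are counted but not named. The members and lists were chosen with earlier results of these data known. Alternatives were 1 FPKM as pseudocount, a minimum of 1 FPKM in both groups, centring on the median ratio, and a threshold of 2. The calculation was checked on simulated data. Python 3.11.15, numpy 2.4.6, pandas 2.3.3 and matplotlib 3.10.9 were used.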

Additional observations from a re-analysis of the deposited data

How the results depend on the processing

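No paired analysis was possible because each group has 1 value, and no library could be left out for the same reason. Raising the log2 threshold to 2 left 0 WRKY genes with Ni and 0 without Ni in either direction, compared with 4 and 9 at a threshold of 1, since a stricter threshold must lower the counts. The share of all genes listed past 2 was not counted. Centring on the median log2 ratio of all genes listed (-0.91 with Ni, -0.71 without Ni) gave 3 WRKY genes higher and 0 lower past the threshold with Ni, and 4 higher and 0 lower without Ni (4 in all, compared with 9). The same shift applies to every gene listed, and the share of all genes past the threshold after it was not counted. The median over the WRKY genes became 1.91 with Ni and -0.30 without Ni. The sign turned for AT2G38470 (0.053) and AT4G26640 (0.066) without Ni. The tables hold no gene near a ratio of 0, so their median follows whichever direction has more genes and is a poor centre. With 1 FPKM added, 3 WRKY genes were past the threshold with Ni and 7 without Ni, and the median without Ni was -0.89. No WRKY value was below the minimum of 1 FPKM, the lowest being 1.62 FPKM (AT2G34830 in NTM roots without Ni). That filter therefore removed none of the 19 WRKY values, and it cannot change a value it keeps. The Ni change of AT4G01250 moved by less than 0.1 under these settings in both ecotypes. A median was taken as moved when it shifted by 0.1 or more, and a count when it changed over 1.5 times. Without values per library or a depth in these tables, no error can be set to any value.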
